A study of Bos taurus with 8 samples.

Results

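Cytotoxic T cells of cattle blood were picked out of 4 single-cell RNA-seq libraries of peripheral blood mononuclear cells (PBMCs) by their transcripts. A barcode counted as a cytotoxic T cell when it held 200 to 3000 detected genes, at least 2 UMIs (unique molecular identifiers, 1 per captured transcript) of CD3D, CD3E and CD3G together and at least 2 UMIs of the granule genes GNLY, PRF1, GZMB and CTSW together, with no UMI of NCR1, WC1, WC1.3, MS4A1 or CD14. The cells were thus selected on the measured UMIs of these genes, whose levels are given as a description and not tested. This rule kept 685 of the 28641 barcodes within the gene limits, out of 30756 barcodes in all: 215 without lipopolysaccharide (LPS), 215 after 2 h of LPS, 192 after 4 h and 63 after 8 h. The study treated whole blood with LPS, a cell wall component of Gram-negative bacteria that drives inflammation. Blood of 4 female lactating Holstein cattle aged 2 years was mixed into 1 pool and split. One share had no LPS (label "no LPS", with no incubation time given), and the others had 2 µg/ml LPS at 37 °C for 2, 4 or 8 h (labels "2 h LPS", "4 h LPS" and "8 h LPS"). Each treatment is 1 library of the same pool, so LPS times have values and counting intervals but no test, and they cannot be told apart from differences between libraries or from time in culture.

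Cytotoxic T cells recognise a target through the T cell receptor, whose signal leaves the membrane through the CD3 chains, and then empty granules onto it. Perforin (PRF1) opens the target membrane, granzymes such as GZMB cut proteins inside it, and granulysin (GNLY) damages microbial membranes. CTSW is a cathepsin of cytotoxic lymphocytes. Most such cells carry the co-receptor CD8, and natural killer (NK) cells use the same granules without CD3. NCR1, which encodes the NK receptor NKp46, defined the main group of comparison: the 303 barcodes with at least 1 NCR1 UMI and no CD3 UMI, called NCR1-positive CD3-zero cells (64, 103, 97 and 39 in the order no LPS, 2 h, 4 h and 8 h, which is used for all lists of 4 values). The second group was the 10054 T cells that met every part of the rule but had no granule UMI, called granule-zero T cells (2481, 3549, 2905 and 1119).

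The libraries held 8490, 10429, 7977 and 3860 barcodes with 58038800, 63770426, 56453080 and 30902952 UMIs. The median cytotoxic T cell had 5470, 5913, 6540.5 and 6752 UMIs, against 4607, 4617, 5419 and 6916 in NCR1-positive CD3-zero cells and 4124, 4148, 4760 and 5360 in granule-zero T cells. Library pairs shared 8 to 24 barcodes by sequence, and no barcode was a cytotoxic T cell in both libraries of a pair. No doublet caller was run. For levels, UMIs were summed over a group of cells in a library and scaled to the same total (CPM), and all intervals cover counting error only.

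Markers were read beside the label, but genes of the rule are among them and had chosen the cells. The rule asked for CD3 UMIs and allowed no UMI of NCR1, MS4A1 or CD14 in cytotoxic T cells. NCR1 and CD79A in turn defined the reference groups. Part of each difference below was thus fixed in advance, and the markers are no independent check. All 10 T cell markers had UMIs in every library, with summed levels of 2388, 2025, 1941 and 1996 CPM. B cell markers were found for 5 to 9 of 10 genes at summed levels of 14.9 to 33.4 CPM, against 3448 to 3703 CPM in CD79A-positive CD3-zero cells, which served as a reference of the same libraries. That reference also held 2734, 569, 383 and 486 CPM of monocyte markers, and so was mixed, above all without LPS. The summed monocyte markers lay between 189.6 and 236 CPM with 6 to 8 of 12 genes found, and CD163 was at 0 throughout. Of 13 NK cell markers 9 to 11 were found at 251 to 345 CPM, against 1877 to 2283 CPM in NCR1-positive CD3-zero cells. GZMB is the sum of 2 gene identifiers that share its name, ENSBTAG00000053015 and ENSBTAG00000010057.

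The granule threshold cut through a continuous range. Among T cells that passed the other parts of the rule, 180, 288, 222 and 115 had a granule sum of 1 and stayed outside, while 42, 40, 33 and 20 had the smallest sum allowed, 2. Members with a granule sum of 10 or more numbered 102, 95, 94 and 23. The median sum was 8, 7, 9 and 5 and the highest single cell held 102, 216, 487 and 68 granule UMIs. On the CD3 side, 20, 22, 24 and 4 members had exactly 2 CD3 UMIs, and 29, 32, 20 and 6 barcodes with 1 CD3 UMI were left out. Another 30, 30, 38 and 8 T cells with granule UMIs were left out for an NCR1 UMI, and 7, 9, 9 and 4 for WC1. The limit of 3000 genes left out 28, 61, 47 and 14 barcodes that met the rest of the rule.

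Granule transcripts were also found in the reference barcodes. In CD79A-positive CD3-zero cells, whose median depth was 4466, 4930, 5128.5 and 6454 UMIs, 2.99%, 2.68%, 3.16% and 1.67% reached a granule sum of 2. These values were close to the share of all barcodes that were cytotoxic T cells, which has another denominator. Among T cells that passed the other parts of the rule, 7.48%, 5.31%, 5.78% and 4.86% reached that sum. Most of the CD79A-positive CD3-zero cells that reached it (13 of 22, 14 of 20, 12 of 16 and 2 of 3) carried JCHAIN, the joining chain of secreted antibodies. Of the barcodes with 10 or more JCHAIN UMIs in that reference, 15 of 18, 13 of 18, 11 of 15 and 1 of 1 had a GNLY UMI. Without JCHAIN the share with a granule sum of 2 was 1.51%, 0.965%, 0.976% and 0.719%. Cytotoxic T cells with 10 or more JCHAIN UMIs numbered 1, 2, 0 and 1.

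The no LPS library had the highest share of cytotoxic T cells, 2.73% of barcodes within the gene limits (95% Clopper-Pearson interval 2.38 to 3.12). After 2 h of LPS the share was 2.17% (1.89 to 2.48), after 4 h 2.58% (2.24 to 2.97) and after 8 h 1.83% (1.41 to 2.34). Taken over the T cells that passed the same exclusions, they were 7.48% (6.54 to 8.50), 5.31% (4.64 to 6.04), 5.78% (5.01 to 6.63) and 4.86% (3.75 to 6.17). The intervals of the no LPS and 8 h LPS libraries did not overlap on either denominator. NCR1-positive CD3-zero cells were 0.814% of barcodes without LPS and 1.04%, 1.31% and 1.13% after LPS. The number of cytotoxic T cells per NCR1-positive CD3-zero cell was 3.36 without LPS and 2.09, 1.98 and 1.62 after 2, 4 and 8 h. The order of the libraries depends on the gate: with a granule sum of 1 or more the shares were 5.02%, 5.08%, 5.57% and 5.18%, and the 8 h LPS library was no longer lowest. With no upper limit on genes they were 2.86%, 2.65%, 2.998% and 1.996%, and the no LPS library was no longer highest.

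**Figure D1:**
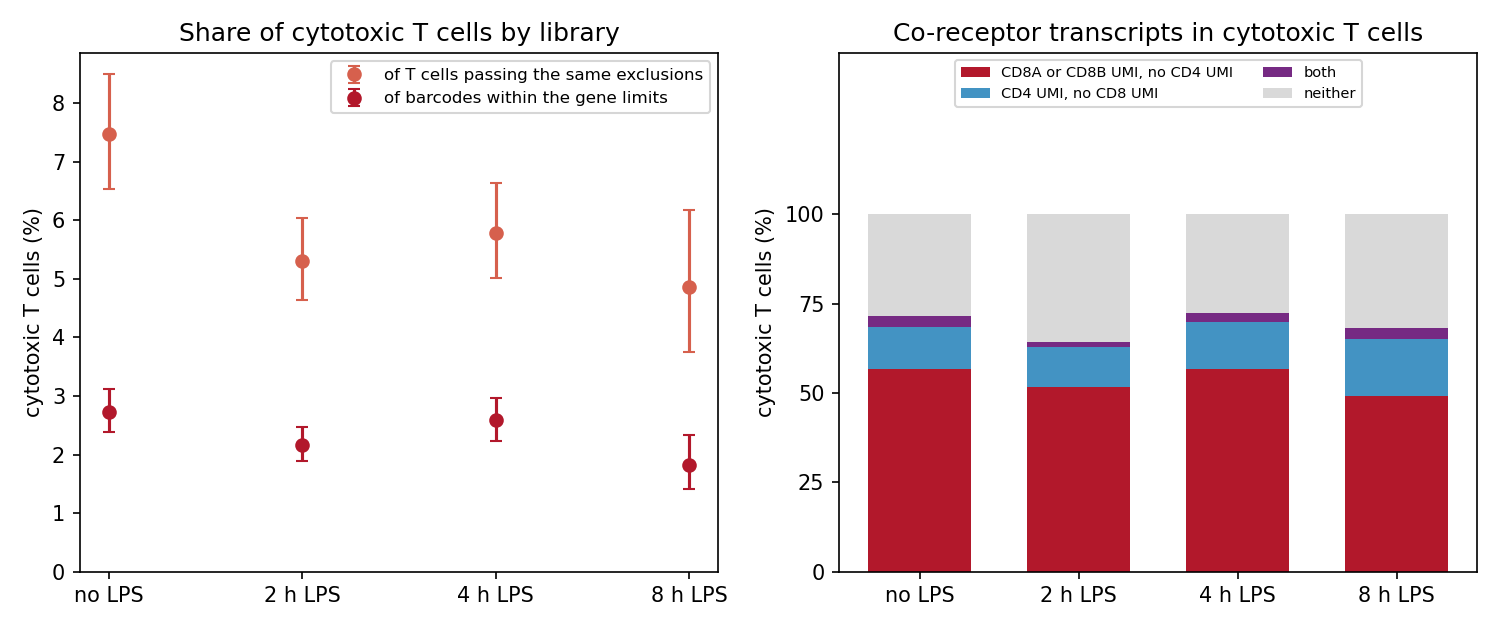
Left, the share of cytotoxic T cells (%, with 95% Clopper-Pearson intervals) of all barcodes and of T cells by library, highest without LPS at 2.73% and 7.48%. Right, the co-receptor transcripts of the same cells by library as stacked shares (%), where members with CD8 and no CD4 UMI are the largest class in each library, 49.2% to 56.8%.

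CD8 dominated among the co-receptors, which the rule did not use. Members with a UMI of CD8A or CD8B and none of CD4 numbered 122, 111, 109 and 31, which is 56.7%, 51.6%, 56.8% and 49.2%. CD4 without CD8 was seen in 25, 24, 25 and 10 members, 11.6% to 15.9%. Both were seen in 7, 3, 5 and 2 members and neither in 61, 77, 53 and 20, 27.6% to 35.8%. The 95% intervals of each class overlapped across all 4 libraries. A cell without a CD8 or CD4 UMI is not shown to lack the co-receptor, as both are sparse at this depth.

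Over all 4 libraries pooled, the granule genes of the rule stood lower in the 84 CD4 members than in the 373 CD8 members. The gate asked for a fixed number of granule UMIs and CD4 members were deeper, with medians of 6854, 7541.5, 9067 and 8323 UMIs against 5258.5, 5710, 6100 and 6694, so these values are a description of the gated cells and the part of depth was not tested. GNLY stood at 424 CPM in CD4 members, 996 in CD8 members and 799 in the 211 members with neither. CTSW stood at 401, 1120.2 and 852 CPM in the same order, and PRF1 at 164, 446 and 343. GZMB stood at 59.3, 572 and 58.2 CPM. CD4 members were lowest for NKG7, a granule membrane protein (139.8, 388 and 242), and for the chemokine CCL5 (1784, 4121 and 2646), which the rule did not use. CD4 members held more IL2RA, the alpha chain of the interleukin 2 receptor, with 267 CPM against 39.0 in CD8 members, and 31 against 62 members with a UMI. TNFRSF4 (OX40), a co-stimulatory receptor, stood at 157 against 7.63 CPM, and CTLA4, an inhibitory receptor, at 28.9 against 2.54. Members with neither co-receptor had the highest BLK, a Src family kinase, at 135 CPM against 51.7 and 48.3. These are pooled values and were not tested.

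The genes of the rule are described first, since they chose the cells. GNLY stood at 791, 999, 808 and 548 CPM in cytotoxic T cells and at 928, 1384, 1368 and 914 CPM in NCR1-positive CD3-zero cells. PRF1 stood at 434, 343, 350.0 and 329.7 CPM against 370.1, 385, 386 and 334, and CTSW at 1120.0, 934, 865 and 532 CPM against 703, 595, 595 and 780.5. GNLY was lower in cytotoxic T cells in every library, while PRF1 lay close to the level of the other group in all 4 and CTSW was the higher in all but the 8 h LPS library. Most members showed more than 1 of the 4 genes: 49, 55, 44 and 21 had UMIs of 1 gene only, and 14, 23, 17 and 3 had all 4. GNLY UMIs were found in 58.1%, 55.8%, 56.2% and 46.0% of members and in 3.93%, 3.22%, 4.74% and 2.22% of CD79A-positive CD3-zero cells. CD3E stood at 871, 738, 711 and 804 CPM, near the 733 to 838 CPM of granule-zero T cells.

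GZMB was held by few cells. Its level was 134, 347, 606 and 22.3 CPM in cytotoxic T cells and 6.27, 7.55, 7.03 and 0 CPM in NCR1-positive CD3-zero cells. Only 34, 34, 30 and 5 members had a GZMB UMI, which is 15.8%, 15.8%, 15.6% and 7.94%, against 0.136% to 0.791% of CD79A-positive CD3-zero cells in the first 3 libraries. One member held 38, 128, 319 and 4 of the GZMB UMIs of its library. The share of members with a GZMB UMI was level over the first 3 libraries while the summed level was 2.17 higher on the log2 scale at 4 h than without LPS (1.94 to 2.43), and 1.82 higher when the highest member of each library was left out. In NCR1-positive CD3-zero cells 1, 1, 1 and 0 cells had a GZMB UMI.

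The 73 members with 2 or more GZMB UMIs (23, 24, 24 and 2) were compared with the 582 members with none. GNLY stood at 2456 against 600.5 CPM and CCL5 at 5465 against 2906 CPM, while PRF1 was similar at 382 against 360.5 CPM. Members with no GZMB UMI had to reach the granule sum on GNLY, PRF1 and CTSW, and members with 2 or more did not. The GNLY and PRF1 levels thus depend on the rule and describe the gated cells. GZMA, another granzyme, stood at 60.7 against 5.39 CPM, with UMIs in 13 and 6 members. Genes of dividing cells were concentrated there: MKI67 at 189.8 against 18.9 CPM and in 13 of 73 against 21 of 582 members, and the centromere protein CENPF at 239 against 10.8 CPM and in 14 against 14 members. One member held 34 of the 100 MKI67 UMIs and one held 65 of the 126 CENPF UMIs of the GZMB members. IL7R, the interleukin 7 receptor of resting T cells, was lower at 607 against 1209.8 CPM, and so was TCF7, a transcription factor of the same state, at 20.9 against 99.8. These pooled values were not tested.

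The question of the next comparison was what separates cytotoxic T cells from NCR1-positive CD3-zero cells. The latter were not gated on granule genes, so the groups were not matched for them. UMIs were summed by library and group, and 4842 genes outside the rule were tested with edgeR's quasi-likelihood test, with the library as a block and Benjamini-Hochberg adjustment. Higher in cytotoxic T cells at an adjusted p under 0.05 were 506 genes, 10.5% of those tested, and lower were 609, 12.6%. The median log2 fold change of all tested genes was 0.01. DESeq2's Wald test called 561 genes. After cells were thinned to 1000 UMIs and gated again, edgeR called 32 of the 271 genes that could be tested. The p-values measure the spread of the difference over 4 libraries of 1 pool under different treatments. As the groups were gated on CD3, NCR1 and granule genes, differences in other T or NK cell genes are no independent evidence of what the cells are.

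Genes of T cell receptor signalling were mostly higher in cytotoxic T cells. Of 13 measured, 9 were higher and 1, FYN, was lower, with a median of 0.89. FYN was 0.062 when all cells were thinned to 1000 UMIs and gated again. The kinase ZAP70 was 4.42 ± 0.35 (SE, adjusted p = 9.9e-08) on the log2 scale and the adaptor LAT 1.80 ± 0.20 (SE, adjusted p = 4.6e-06). The receptor CD5, which tunes the signal, was 4.23 ± 0.36 (SE, adjusted p = 2.1e-07). CD6, its relative, had 3 UMIs in all NCR1-positive CD3-zero cells and a ratio of pooled levels of 30.1 (counting interval 10.2 to 147).

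The largest differences were in genes close to absent from NCR1-positive CD3-zero cells. LAG3, an inhibitory receptor that binds MHC class II, stood at 105, 81.8, 66.4 and 86.9 CPM in cytotoxic T cells and at 0, 0, 1.76 and 0 CPM in the other group, where it rested on 1 UMI, and the ratio of pooled levels was 142 (counting interval 25.4 to 5638). LAG3 was also found in granule-zero T cells at 31.2, 23.4, 21.4 and 18.3 CPM. BLK stood at 77.8, 64.3, 90.3 and 51.2 against 0, 0, 0 and 3.72 CPM, again on 1 UMI. LYSMD2 had 1 UMI in the other group and a ratio of 87.6 (counting interval 15.6 to 3473), and RHEX had 2 UMIs and 35.6 (counting interval 9.72 to 296). JAML, an adhesion molecule of lymphocytes, had a log2 fold change of 4.14 ± 0.23 (SE, adjusted p = 1.4e-09) and CD4 of 4.36 ± 0.41 (SE, adjusted p = 7.2e-07). Each of these genes was higher in all 4 libraries.

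GZMM, a granzyme outside the rule, was higher in cytotoxic T cells than in both other groups. It stood at 118, 95.7, 102 and 64.6 CPM in cytotoxic T cells, at 12.5, 1.89, 3.51 and 0 CPM in NCR1-positive CD3-zero cells and at 1.11, 1.40, 1.16 and 1.13 CPM in granule-zero T cells, and every value of cytotoxic T cells lay above all values of the others. The log2 fold change was 4.45 ± 0.35 (SE, adjusted p = 8.2e-08) against the former and 6.39 ± 0.17 (SE, adjusted p = 7.4e-16) against the latter. Among the 12 tested genes of granule machinery outside the rule, GZMM and SRGN (serglycin, the granule proteoglycan, at 0.17) were higher, 4 were lower and the median was -0.41. The 4 included NKG7 at 367, 308, 289 and 203 against 496, 342, 374 and 346 CPM (log2 fold change -0.44 ± 0.11 SE, adjusted p = 0.0067) and FASLG, the death receptor ligand, at -1.69 ± 0.24 (SE, adjusted p = 5.8e-05). With all cells thinned to 1000 UMIs and gated again NKG7 was 0.37. SRGN was -0.25 when only CD8-positive CD4-zero cytotoxic T cells were used.

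**Figure D2:**
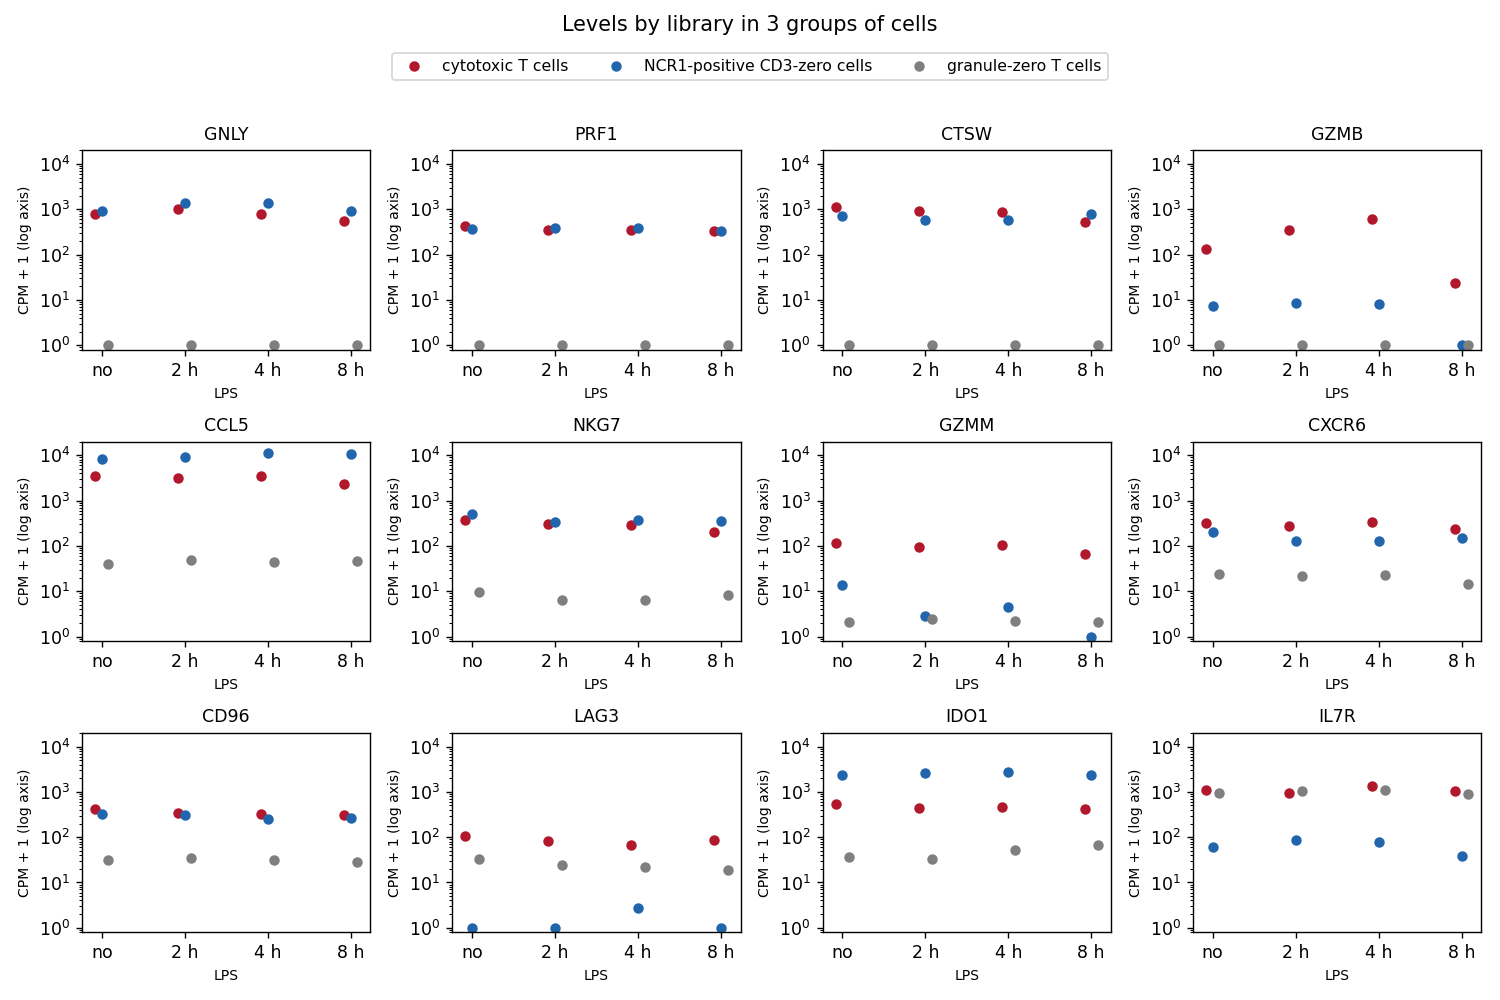
Levels of 12 genes by library (CPM + 1, log axis, 1 point per group and library) in cytotoxic T cells, NCR1-positive CD3-zero cells and granule-zero T cells, in which the 4 granule genes of the rule are 0 by definition. GZMM and LAG3 are highest in cytotoxic T cells in every library, and CCL5 and IDO1 are highest in NCR1-positive CD3-zero cells.

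Genes of homing and survival were divided. Of 7 tested naive and quiescence genes 3 were higher and 1, TCF7, was lower (median 0.58). IL7R stood at 1078, 937, 1373 and 1049 CPM in cytotoxic T cells, close to granule-zero T cells (946, 1025, 1101 and 907) and far above NCR1-positive CD3-zero cells (59.6, 85.0, 75.5 and 37.2), and was 4.00 ± 0.15 (SE, adjusted p = 6.7e-12) on the log2 scale. CCR7, a lymph node homing receptor, was 1.59 ± 0.28 (SE, adjusted p = 4.8e-04). Of 12 chemokine receptors and integrins 5 were higher and 3 lower (median 0.30). CXCR3, the receptor of interferon-induced chemokines, was 4.10 ± 0.46 (SE, adjusted p = 5.5e-06) and the integrin ITGA1 2.37 ± 0.37 (SE, adjusted p = 1.6e-04). CXCR6, a marker of the gate's label, stood at 319, 275, 334 and 234 against 198, 130.3, 130.0 and 149 CPM (log2 fold change 0.94 ± 0.13 SE, adjusted p = 5.3e-05). S1PR5 and CX3CR1, receptors of circulating effector cells, were lower at -1.97 and -1.58, as was CXCR4 at -0.35. CD96, the other marker, stood at 418, 337, 329.9 and 309.6 against 317, 300.3, 253 and 264 CPM and did not pass the test (0.26 ± 0.10, adjusted p = 0.085 in edgeR).

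Of 10 tested NK-type receptors and adaptors 8 were lower and none higher, with a median of -1.38. Monocyte markers moved with this difference: their summed level was 966, 357, 479.5 and 401 CPM in NCR1-positive CD3-zero cells, and all 3 that could be tested were lower in cytotoxic T cells (median -2.21). Their part in FCER1G, TYROBP, PTX3, CCL3 and the other genes of this comparison was not tested. The inhibitory receptor gene NKG2A stood at 15.7, 8.03, 5.22 and 6.68 against 254, 108, 133 and 216 CPM (log2 fold change -4.22 ± 0.21 SE, adjusted p = 4.3e-10). FCER1G, a signalling adaptor, stood at 129, 170.2, 102 and 129 against 1333, 1239, 1263 and 1171 CPM (log2 fold change -3.29 ± 0.11 SE, adjusted p = 3.1e-12), and TYROBP, a second adaptor, was -2.85. KLRB1 and KLRD1 were -2.14 and -2.03. KLRK1, the activating receptor NKG2D, was the exception with 102, 88.4, 76.1 and 57.9 against 109.8, 73.6, 80.8 and 100.3 CPM and a log2 fold change of -0.14 ± 0.17 (adjusted p = 0.60 in edgeR), and SLAMF7 also did not pass.

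The largest negative differences included enzymes and surface proteins. IDO1, which breaks down tryptophan, stood at 544, 442, 461 and 408 CPM in cytotoxic T cells, 2399, 2585, 2745 and 2345 in NCR1-positive CD3-zero cells and 36.4, 32.5, 52.0 and 67.2 in granule-zero T cells. The groups were ordered the same way in every library, and the difference from NCR1-positive CD3-zero cells was -2.48 ± 0.08 (SE, adjusted p = 1.7e-12). IDO1 UMIs were found in 96, 101, 91 and 28 members, and the highest member held 3.90% to 13.1% of them. CD38, an ectoenzyme that consumes NAD, was -3.05 ± 0.22 (SE, adjusted p = 4.5e-08), CAMK2N1, an inhibitor of calmodulin kinase II, -3.88 ± 0.29 (SE, adjusted p = 4.9e-08) and PTX3, a soluble pattern receptor, -2.91 ± 0.22 (SE, adjusted p = 6.4e-08). SLC43A2 (an amino acid transporter), LAT2, CD63 (a lysosomal tetraspanin) and SPRY2 (an inhibitor of growth factor signalling) were lower by a log2 fold change of -2.51 to -2.60.

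Cytokine genes divided. Of 6 tested, LTB (lymphotoxin beta) and TNF were higher at 2.75 and 1.03, and 4 chemokines were lower. CCL5, which attracts T cells and monocytes, stood at 3521, 3126, 3539 and 2368 against 8418, 9142, 10971 and 10682 CPM (log2 fold change -1.68 ± 0.09 SE, adjusted p = 1.2e-09). XCL1, which attracts cross-presenting dendritic cells, was -3.81 ± 0.37 (SE, adjusted p = 1.0e-06), and CCL3 and CCL4 were -1.46 and -0.79. Of 14 effector transcription factors, 2 were higher, GATA3 among them (0.98), and 6 were lower, among them EOMES (log2 fold change -1.20 ± 0.16 SE, adjusted p = 2.7e-05) and ZEB2 (log2 fold change -1.35 ± 0.26 SE, adjusted p = 9.5e-04), with a median of -0.52. TBX21, which encodes T-bet, stood at 20.4, 18.3, 21.6 and 11.1 against 25.1, 45.3, 19.3 and 44.6 CPM and did not pass.

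**Figure D3:**
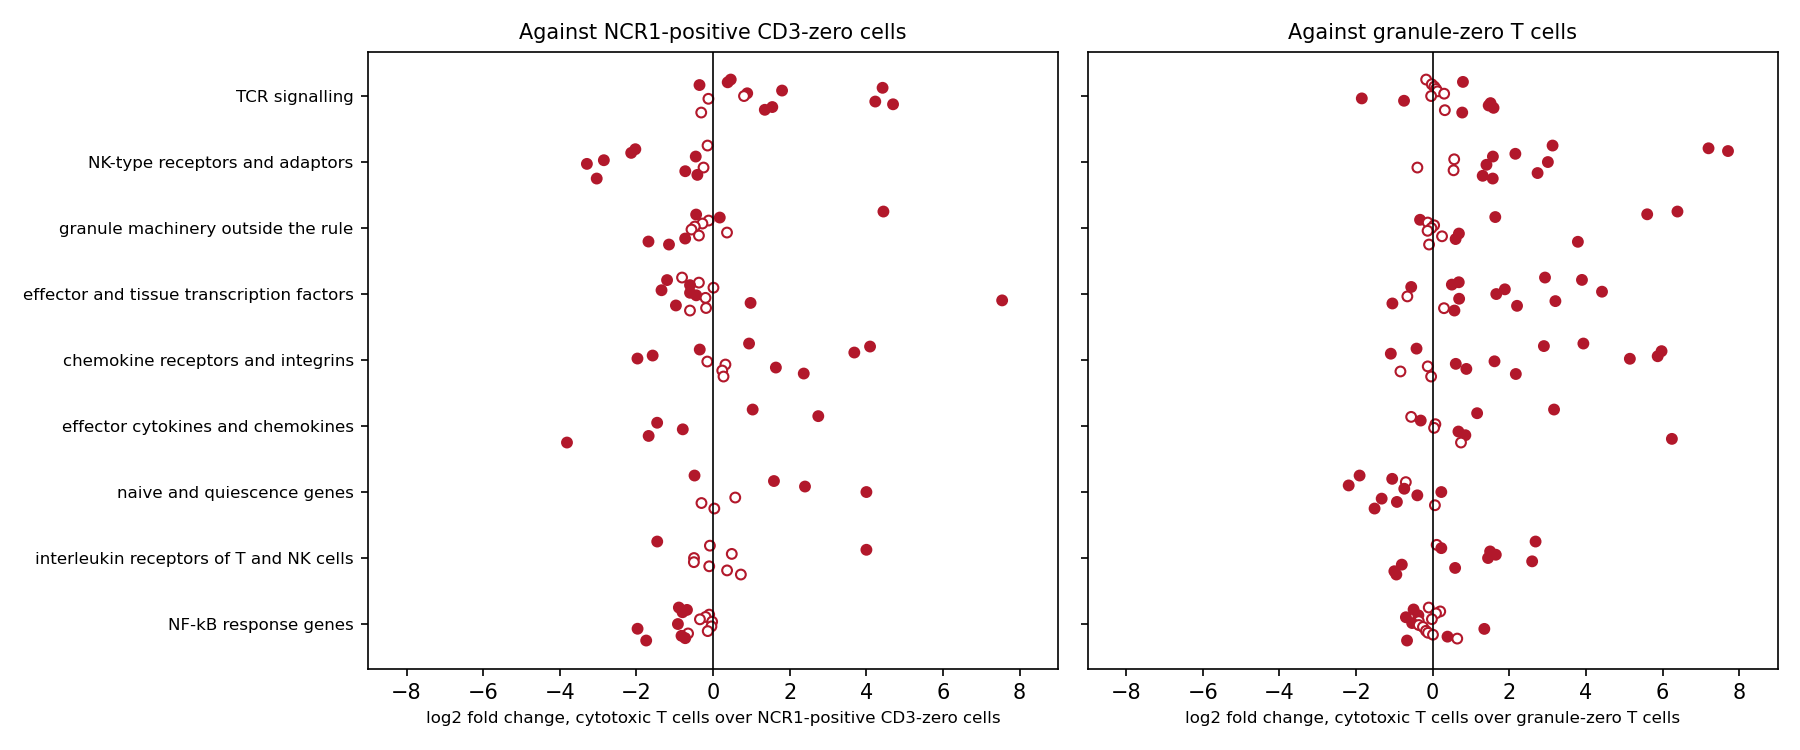
Log2 fold change of cytotoxic T cells over NCR1-positive CD3-zero cells (left) and over granule-zero T cells (right) for the genes of 9 lists, 1 point per gene, filled where the adjusted p was under 0.05. NK-type receptors lie below 0 on the left (8 of 10 lower) and above 0 on the right (10 of 13 higher).

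The second comparison set cytotoxic T cells against T cells of the same libraries without granule UMIs. Of 8665 genes tested in the same way, 1364 were higher (15.7%) and 997 lower (11.5%), with a median of -0.02. After thinning to 1000 UMIs, with the rule applied again, 155 of 2746 genes were called. CD8-positive CD4-zero cells were 340 of 2481, 446 of 3549, 391 of 2905 and 178 of 1119 granule-zero T cells. Among cytotoxic T cells they were 122 of 215, 111 of 215, 109 of 192 and 31 of 63. With both groups limited to such cells, 1972 of 5857 genes were called. The part of this make-up in the differences below was not tested further. The comparison shares its cytotoxic T cells with the one above, so the counts of both are not independent.

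Several effector genes stood far above the level of other T cells, while the lists that hold them were divided. CCL5 was found at 39.4, 47.5, 43.2 and 45.9 CPM in granule-zero T cells, and the difference was 6.24 ± 0.09 (SE, adjusted p = 7.2e-20). NKG7 was 5.60 ± 0.12 (SE, adjusted p = 5.8e-17) and FASLG 3.79 ± 0.27 (SE, adjusted p = 2.0e-09). Of the 13 tested genes of granule machinery 6 were higher and 1, SRGN, was lower (median 0.25). Of 10 effector cytokines and chemokines 5 were higher and 1, LTB, was lower (median 0.71). Besides GZMM, CCL5 and NKG7, large differences were found for TMIGD2, a co-stimulatory receptor (5.55), the homeobox gene HOPX (4.42), SPRY2 (4.40), ASS1, an enzyme of arginine synthesis (4.27), the sodium pump subunit ATP1B1 (4.09) and the growth factor PDGFB (4.05).

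NK-type receptors, lower than in NCR1-positive CD3-zero cells, were higher than in granule-zero T cells for 10 of 13 genes, with none lower and a median of 1.57. KLRB1 stood at 30.6, 14.6, 30.6 and 26.7 CPM in cytotoxic T cells and at most at 0.162 CPM in granule-zero T cells (log2 fold change 7.71 ± 0.38 SE, adjusted p = 1.1e-11). KLRD1 had 3 UMIs in all granule-zero T cells and a ratio of pooled levels of 182 (counting interval 58.8 to 911). KLRK1 was 3.13 ± 0.14 (SE, adjusted p = 3.3e-12) and FCER1G 3.01 ± 0.11 (SE, adjusted p = 1.5e-13). IDO1 was 3.47 ± 0.14 (SE, adjusted p = 7.4e-13), and LAG3 1.89 ± 0.11 (SE, adjusted p = 1.4e-10). The 2 comparisons thus placed the summed levels of cytotoxic T cells between the groups for KLRB1, NKG2A, FCER1G, IDO1 and CCL5. Each was past the threshold on both sides and had the same direction in all 4 libraries. A summed level does not show that single cells are intermediate. FCER1G UMIs were found in 40, 46, 30 and 16 members, and KLRB1 UMIs in 23, 14 and 23 without LPS, at 2 h and at 4 h. CCL5 UMIs were found in 160, 162, 158 and 40.

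Transcription factors of effector cells were higher for 11 of 15 genes (median 0.69). EOMES was 3.90 ± 0.18 (SE, adjusted p = 6.7e-12) and TBX21 2.93 ± 0.25 (SE, adjusted p = 2.8e-08), while GATA3 and ID2 were lower. With CD8-positive CD4-zero cells of both groups GATA3 was 0.48 and SRGN 0.71. Naive genes were lower for 8 of 11 (median -0.93): CCR7 at -2.19 ± 0.13 (SE, adjusted p = 2.3e-10), LEF1 at -1.91 ± 0.23 (SE, adjusted p = 3.0e-06) and TCF7 at -1.06 ± 0.11 (SE, adjusted p = 3.7e-07). IL7R was the 1 gene of that list that was higher, by a small margin (log2 fold change 0.23 ± 0.06 SE, adjusted p = 0.0053, higher in 3 of 4 libraries). Chemokine receptors and integrins were higher for 9 of 14 and lower for 2, CCR4 and CXCR4 (median 1.25). CXCR6 was 3.93 ± 0.09 (SE, adjusted p = 6.1e-17), CXCR3 2.90, CX3CR1 5.87 and S1PR5 5.15. CD96 was 3.60 ± 0.09 (SE, adjusted p = 1.5e-16).

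T cell receptor signalling genes were nearer to level, with 5 of 15 higher, 2 lower and a median of 0.13. ZAP70 and BLK did not pass (0.04 ± 0.09, adjusted p = 0.78, and -0.08 ± 0.10, adjusted p = 0.57, both in edgeR), and CD28, the classical co-stimulatory receptor, was -1.85 ± 0.32 (SE, adjusted p = 1.8e-04). CTLA4 was -2.09 and CD4 -1.19. Of the 12 listed γδ T cell genes 5 were measured, WC1 and WC1.3 of the rule among them. The 3 tested, GATA3, RHEX and SOX4, were lower (median -1.17). Against NCR1-positive CD3-zero cells 2 of them were higher and 1 lower (median 0.98). WC1-positive cells were left out of both groups, and γδ T cells without WC1 were not. The share of γδ T cells among the members cannot be read from these genes. The largest negative differences were found for genes of low level, HOOK1 and TPST1 on 2 UMIs each in cytotoxic T cells, RHOBTB1 (-3.75), FGL2, a secreted suppressor of T cells (-3.26), IL17RB, a receptor of interleukin 25 (-3.19), GCNT4, IGFBP4, TGM2, CDH20 and TBC1D4 (from -3.14 to -2.93).

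Under LPS the cytotoxic T cells were compared time by time with the no LPS library, as log2 ratios of CPM + 1 with 95% counting intervals. At 2 h 143 of 6757 genes with at least 20 UMIs over the pair were at least 2-fold higher (2.12%) and 100 at least 2-fold lower (1.48%). At 4 h the counts were 171 of 6780 (2.52%) and 118 (1.74%), and at 8 h 191 of 5840 (3.27%) and 267 (4.57%). With TMM scaling in place of total UMIs the 8 h split was 141 and 321. With at least 100 UMIs over the pair, 34, 47 and 38 genes were past 2-fold at 2, 4 and 8 h. The 8 h library had 63 members, so its ratios have the widest intervals. All 3 comparisons share the no LPS library. The median ratio of all genes was 0.02, 0.04 and -0.00.

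Interferon-stimulated genes were the clearest group and were high at 4 h. At 4 h 22 of 27 measured genes were at least 2-fold higher, none was lower, and the median ratio was 1.72. At 2 h it was 1 of 23 (median 0.12) and at 8 h 1 of 18 (median 0.07). ISG15, a ubiquitin-like protein induced by interferon, stood at 44.8, 347, 1533 and 289.6 CPM. ISG15 UMIs were found in 29 of 215, 54 of 215, 108 of 192 and 12 of 63 members, and in 25.5%, 59.1%, 79.2% and 67.2% of CD79A-positive CD3-zero cells. The ratio at 4 h was 5.07 (4.72 to 5.50). At 8 h 117 of the 130 ISG15 UMIs lay in 1 member, and the ratio of 2.67 (2.23 to 3.17) became -0.22 without the highest member of each library.

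The other interferon-stimulated genes followed at 4 h. MX1, an antiviral GTPase, stood at 13.4, 13.1, 199 and 22.3 CPM and had a ratio of 3.80 (3.19 to 4.70), with UMIs in 62 of 192 members against 11 of 215 without LPS. OAS1Y, an RNA sensor of the oligoadenylate synthetase family, was 3.91, MX2 3.75, IFIT3 3.60, RSAD2 (viperin) 2.84 and the transcription factor IRF7 1.72. IFI6 was under 2-fold at 0.36. The same list had medians of 1.64 over 20 genes in NCR1-positive CD3-zero cells and 1.68 over 29 genes in granule-zero T cells at 4 h, beside 1.72 in cytotoxic T cells. At 2 h the medians were 0.12 in cytotoxic T cells, 0.88 over 12 genes in NCR1-positive CD3-zero cells and 0.41 over 28 genes in granule-zero T cells. ISG15 at 2 h was 2.93 (2.56 to 3.38) in cytotoxic T cells, 5.29 in NCR1-positive CD3-zero cells and 2.54 in granule-zero T cells.

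**Figure D4:**
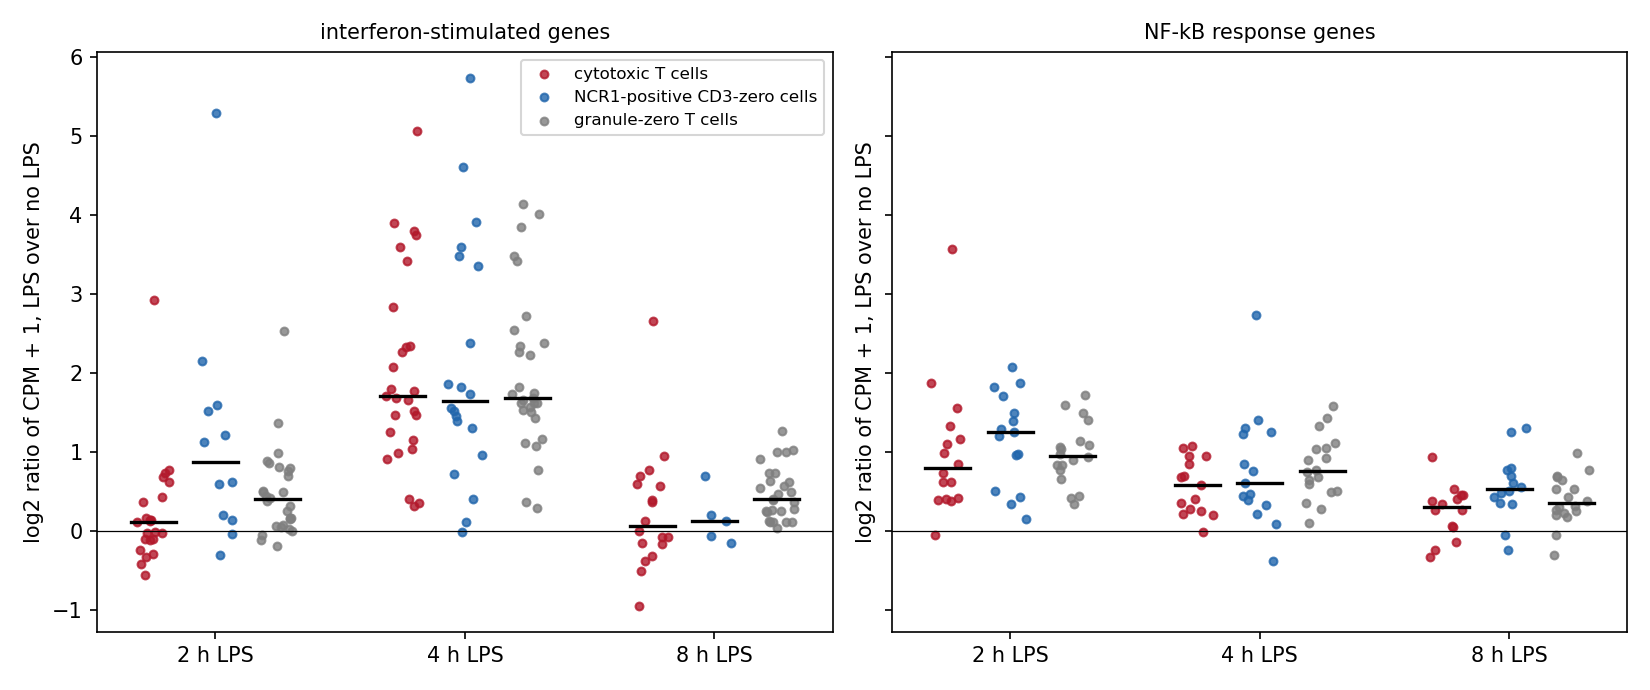
Log2 ratio of CPM + 1, LPS over no LPS, at 2, 4 and 8 h for interferon-stimulated genes (left) and NF-kB response genes (right) with at least 20 UMIs over the pair, 1 point per gene and a black bar at the median, in 3 groups of cells. Interferon-stimulated genes are highest at 4 h with medians of 1.72, 1.64 and 1.68, and NF-kB response genes are highest at 2 h with medians of 0.80, 1.26 and 0.96.

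NF-kB response genes were highest at 2 h. At that time 6 of 16 were at least 2-fold higher (median 0.80), against 2 of 15 at 4 h (0.59) and 0 of 14 at 8 h (0.31). NFKBIA, the inhibitor that NF-kB induces against itself, stood at 159, 587, 332 and 192 CPM with a 2 h ratio of 1.88 (1.66 to 2.12), and UMIs were found in 101, 150, 116 and 35 members. NFKB2 stood at 55.0, 164, 117 and 80.2 CPM with 1.56 (1.19 to 1.99), and RELB, its partner, was 1.33 (0.99 to 1.72). For these 3 genes no member held more than 15.2% of the UMIs at 2 h. The list's 2 h median was 1.26 in NCR1-positive CD3-zero cells and 0.96 in granule-zero T cells.

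A minority of activation genes was past 2-fold at 2 h and 4 h. Of 12 measured at 2 h, CD69, CD83, TNFRSF9 and TNFRSF18 were past 2-fold (median 0.67), and at 4 h 6 of 14 were, with IL2RA and FOS added (median 0.67). TNFRSF9 rested on 1 member with 18 of 22 UMIs at 4 h, and with no upper limit on genes its ratios were -1.51 at 2 h and -0.46 at 4 h. CD69, an early activation antigen that keeps lymphocytes in tissue, stood at 14.9, 51.1, 44.8 and 46.8 CPM with 1.71 (1.03 to 2.59) at 2 h. CD83 stood at 2.36, 39.4, 19.4 and 15.6 CPM, against 85.0, 954, 447 and 219.9 CPM in CD79A-positive CD3-zero cells. TNFRSF18 (GITR), 1 of the 5 named as highest at 2 h, had a ratio of 1.90 (1.49 to 2.38) from 20 members with a UMI without LPS and 37 with. RGS1, which dampens chemokine receptor signals, stood at 111, 238, 425 and 163 CPM and had 1.93 (1.67 to 2.22) at 4 h, and HERC5, a ligase of ISG15, 1.93 (1.51 to 2.42). SAMSN1, an adaptor, had 1.17 (0.82 to 1.54) at 8 h from 117 to 265 CPM and 0.95 without the highest member, and was at 268 and 261 CPM at 2 h and 4 h.

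Cytokine genes at 2 h often rested on single cells. IFNG, the interferon of effector T and NK cells, stood at 4.71, 41.6, 14.2 and 13.4 CPM in cytotoxic T cells and 0, 174, 33.4 and 11.1 in NCR1-positive CD3-zero cells. Its 2 h ratio in cytotoxic T cells was 2.90 (1.93 to 4.65), with UMIs in 6 and 11 of 215 members, and 31 of 57 UMIs at 2 h in 1 member. Without the highest member of each library the ratio was 2.03. In NCR1-positive CD3-zero cells 0 of 64 and 13 of 103 had an IFNG UMI, where 0 of 64 allows a share of cells with a UMI of up to 5.60% (95% exact upper limit) and sets no limit on cells that express the gene. CCL4, a chemokine that attracts T cells and monocytes, stood at 116, 407, 92.5 and 93.6 CPM with 1.80 (1.54 to 2.08) at 2 h and 1.71 without the highest members, and CCL3 at 69.1, 205, 63.4 and 178 CPM with 1.55 (1.21 to 1.93) and 1.18. At 8 h 1 member held 50 of the 80 CCL3 UMIs, and the ratio of 1.35 became 0.34 without the highest members.

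Other 2 h ratios rested on 1 cell. JCHAIN had the largest ratio among genes with at least 200 UMIs, 4.23 (3.77 to 4.85), with 615 of 650 UMIs in 1 member, and 0.67 without the highest members. CCL20 had 94 of its 107 UMIs and IL17F 58 of its 60 in 1 member. CXCL8, the neutrophil chemokine, had 3.51 (3.14 to 3.96) with 317 of 687 UMIs in 1 member, and GRO1, a related chemokine, 2.42 (2.13 to 2.75) with 232 of 581 UMIs in 1 member, and the ratios without the highest members were 2.68 and 1.75. CXCL8 and GRO1 UMIs were found in 70 and 99 of 215 members at 2 h, and CD79A-positive CD3-zero cells held 864 and 1041 CPM of them without LPS, where their monocyte markers were highest. The part of RNA from other cells in these values was not tested.

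**Figure D5:**
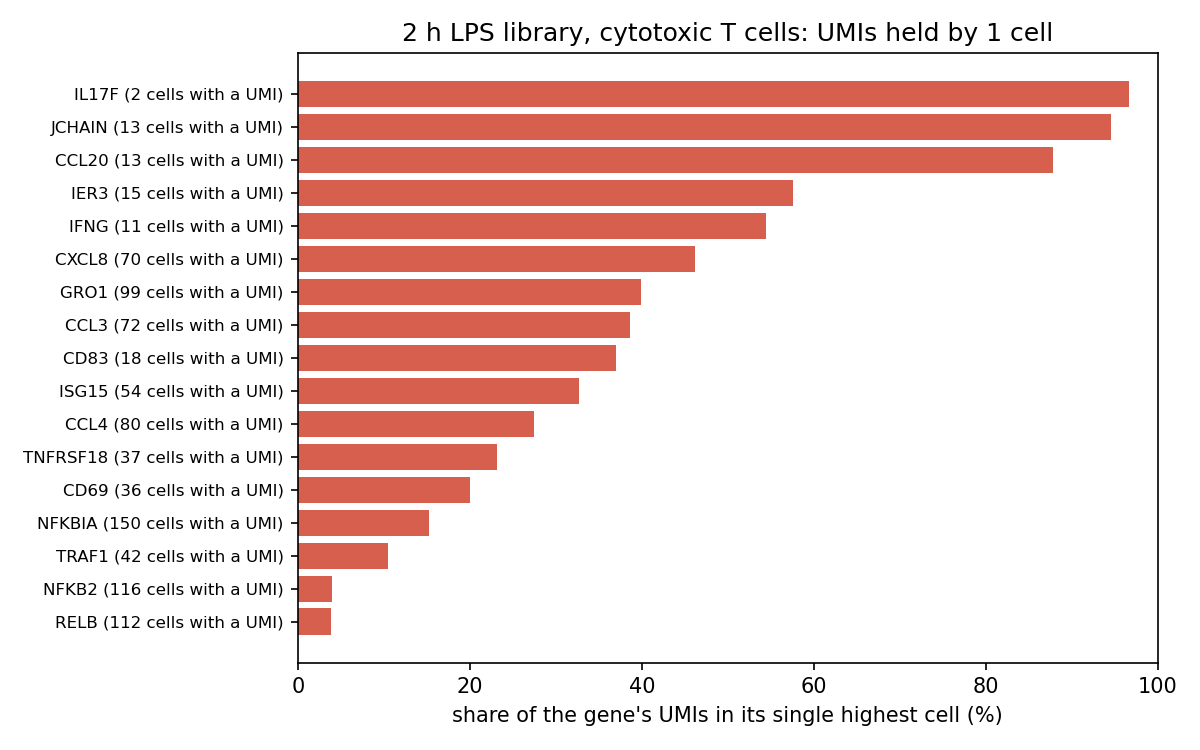
Share (%) of each gene's UMIs that its single highest cytotoxic T cell held in the 2 h LPS library, with the number of members with a UMI beside each gene name. IL17F, JCHAIN and CCL20 lie above 85% and NFKB2 and RELB at or under 4.00%.

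FCER1G UMIs were found in 40, 46, 30 and 16 cytotoxic T cells, and these 132 members were set beside the others over all libraries pooled. KLRB1 stood at 53.9 CPM in FCER1G-positive members and 17.9 in the other 553, and CD8B at 69.3 against 155. CXCL8 stood at 736 against 51.4 CPM with UMIs in 35 of 132 members, and the highest member held 317 of 669. LAG3 was lower at 31.9 against 98.0 CPM, and GZMB at 93.5 against 392. PRF1 was level, at 365 against 371 CPM. Of the monocyte markers, LYZ and CSF1R were found in 3 and 0 of all cytotoxic T cells without LPS. They were found in 0 and 0 at 2 h and 4 h, and 0 and 1 at 8 h. S100A12 and S100A9, of the same list, were found in 18 and 16 of 215 members without LPS. These counts cover all cytotoxic T cells and not the FCER1G-positive members alone. The part of monocyte RNA in the latter was not tested.

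Genes that were lower at 2 h and 4 h were led by CCL2, a monocyte chemokine. CCL2 stood at 141, 22.6, 14.9 and 98.0 CPM with ratios of -2.59 (-3.24 to -2.09) at 2 h and -3.16 (-3.99 to -2.57) at 4 h, and at 1604, 551, 340.5 and 226 CPM in CD79A-positive CD3-zero cells, whose monocyte markers were also highest without LPS. With no upper limit on genes the 2 h ratio of CCL2 was 0.86. Other low ratios at 2 h were those of HSPB1, a small heat shock protein (-1.01, interval -1.43 to -0.63), the cell cycle phosphatase CDC25B (-0.83, interval -1.28 to -0.42) and the tubulin TUBB4B (-0.66). At 4 h they were those of the chemokine CXCL5 (-1.35, interval -1.65 to -1.07), KCTD11 (-1.02, interval -1.42 to -0.66), the NK receptor NCR3 (-0.93, interval -1.30 to -0.58) and the lamin B receptor LBR (-0.90, interval -1.20 to -0.62). CXCL5 UMIs were found in 171 of 215 members without LPS, with at most 6 in 1 member, and in 84 of 192 at 4 h. The part of RNA from other cells in the CCL2 and CXCL5 values was not tested.

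At 8 h some effector genes were among the lowest ratios and some naive genes among the higher ones. CTSW had a ratio of -1.07 (-1.28 to -0.87), HOPX -1.02 (-1.36 to -0.70), S100A4, a calcium-binding protein of memory T cells, -1.07 (-1.28 to -0.86) and DUT, an enzyme of nucleotide synthesis, -1.08 (-1.57 to -0.64). CCR7 stood at 54.2, 80.3, 80.6 and 163 CPM with 1.57 (1.09 to 2.08) and LEF1 at 28.3, 8.76, 18.7 and 82.4 CPM with 1.51 (0.84 to 2.25). The 8 h library was the highest of the 4 for CCR7 and LEF1 and the lowest for CTSW, HOPX and S100A4. Naive genes were past 2-fold for 3 of 8 (median 0.49) and effector transcription factors lower for 3 of 14, HOPX and IKZF2 among them, with a median of 0.11. In granule-zero T cells the 8 h ratios were 0.31 for CCR7, 0.39 for LEF1 and -1.04 for HOPX. The median granule sum was also lowest at 8 h, with 20 of 63 members at the smallest sum allowed against 42 of 215 without LPS, and CTSW is a gene of the rule, so these values describe the cells that passed the gate. The ribosomal gene RPS29 (0.90, interval 0.83 to 0.98), the mitochondrial ND3 (0.90, interval 0.75 to 1.04) and CMIP (0.79, interval 0.37 to 1.22) were among the higher ratios, and RPS29 and ND3 were also higher in NCR1-positive CD3-zero cells (0.76 and 0.87) and in granule-zero T cells (0.70 and 0.90).

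Genes of the granule machinery outside the rule stayed near their no LPS level at 2 h and 4 h. None of 15 was past 2-fold at 2 h (median -0.02) and 1 of 15, GZMK, was lower at 4 h (median -0.11). At 8 h CST7 and RAB27A were higher and GZMK lower among 14 (median -0.14). NKG7 ratios were -0.25, -0.34 and -0.85, and CCL5 ratios -0.17, 0.01 and -0.57. The CCL5 ratios in NCR1-positive CD3-zero cells were 0.12, 0.38 and 0.34. T cell receptor signalling genes had no member past 2-fold at any of the 3 times, among 14 measured each time.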

How the data were processed

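Single-cell RNA-seq of PBMCs from 4 libraries was used, and the 4 chromatin accessibility samples of the series (of 8 samples in all) were not. The authors deposited 1 table of UMI counts per library, with genes in rows and barcodes in columns, and no cell type labels. The submitters' processing notes name Cell Ranger and the bovine builds ARS-UCD1.2 and bosTau9. Per the study's methods Cell Ranger also filtered barcodes. The deposited tables were not cut to 200 to 3000 genes, since 28641 of their 30756 barcodes lay within these limits. Rows with the same gene name were summed (83 names, 21861 rows, 21778 symbols). The cells and the gene lists were chosen with earlier results of these data known.

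UMIs were summed by library and group of cells and scaled to CPM. LPS times were compared without a test, as log2 ratios with a pseudocount of 1 CPM and exact conditional Poisson 95% intervals, over genes with at least 20 UMIs in the pair, and a ratio of 2-fold was called. Groups of cells were compared with edgeR 4.0.16 (R 4.3.3; TMM, filterByExpr, quasi-likelihood test, library as block, Benjamini-Hochberg adjusted p under 0.05), without the 12 genes of the rule, and the scripts were tested on simulated data. The SE after each ± is the size of the log2 fold change divided by the square root of its quasi-likelihood F statistic. It was not estimated separately. Genes with 3 or fewer UMIs in 1 group have a ratio of pooled counts in place of a fitted fold change. Named genes were the members of the lists, and, for each comparison, the called genes of the largest change with at least 200 UMIs, 10 each way between groups of cells (with 1 direction in all 4 libraries) and 5 each way for LPS times. Subsets within the cytotoxic T cells were pooled over libraries and not tested. Some genes that met these rules are not reported here. No doublet was removed. Alternatives were DESeq2 1.42.0, other scalings, filters, pseudocounts and gates, thinning to 1000 UMIs, and leaving out each library, with Python 3.11.15 for all other steps.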

Additional observations from a re-analysis of the deposited data

Results flagged for a closer look

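For 10 pairs of a gene and a time, the LPS ratio of cytotoxic T cells and that of another group of the same libraries lay on opposite sides of 0 with both counting intervals off 0 and at least 1 apart on the log2 scale. The screen ran over many genes, at each LPS time and against both other groups. The number of pairs screened is not reported here, so the 10 are no share. They do not show how often opposite ratios occur. There is 1 library per treatment, so none of these differences was tested.

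Against NCR1-positive CD3-zero cells, BATF, an activation transcription factor, had -0.68 at 8 h in cytotoxic T cells and 1.37 in the others. CD2, an adhesion receptor, had -0.41 against 0.76 at 4 h. The chemokine CXCL2 had 0.72 against -0.66 at 8 h, where 1 cytotoxic T cell held 28 of its 102 UMIs. GRO1 had -0.56 against 1.46 at 4 h. HSPA5, a chaperone of the endoplasmic reticulum, had -0.56 against 0.65 at 8 h, and JCHAIN had 0.98 against -4.32 at 8 h, where 1 cytotoxic T cell held 16 of its 22 UMIs.

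Against granule-zero T cells, BATF had -0.68 and 0.52 at 8 h, and IDO1 had -0.41 and 0.87 at 8 h. IFI6, an interferon-stimulated gene, had -0.94 and 0.26 at 8 h. JCHAIN had 4.23 and -1.01 at 2 h and 0.98 and -0.56 at 8 h, and MZB1, a chaperone of antibody-secreting cells, had 3.93 and -0.73 at 2 h. The 2 h values of JCHAIN and MZB1 in cytotoxic T cells each rest on 1 cell, with 615 of 650 and 81 of 85 UMIs.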

How the results depend on the processing

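No paired analysis was possible between LPS times because each treatment is 1 library. Between groups of cells the library was the block, which pairs the groups over 4 libraries. Without the library block, 837 genes differed from NCR1-positive CD3-zero cells and 1782 from granule-zero T cells, against 1115 and 2361 with it. With DESeq2's Wald test the counts were 561 and 1651, with cells thinned to 1000 UMIs 32 of 271 genes and 155 of 2746, and without each library in turn 754 to 1240 and 1733 to 2708. CD8-positive CD4-zero cytotoxic T cells gave 1022 and, with both groups limited to such cells, 1972. The rule was applied again to the thinned cells, which left 41, 35, 30 and 10 cytotoxic T cells. It left 23, 27, 26 and 8 NCR1-positive CD3-zero cells and 912, 1094, 797 and 404 granule-zero T cells. The thinned groups thus differ from the main ones in their cells as well as in depth. They hold fewer UMIs, so fewer genes could be tested.

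The share of cytotoxic T cells moved with the gate. In the order no LPS, 2 h, 4 h and 8 h it was 1.81%, 1.36%, 1.76% and 1.05% with a CD3 sum of at least 3 and a granule sum of at least 4, 5.02%, 5.08%, 5.57% and 5.18% with a granule sum of at least 1, and 0.560%, 0.371%, 0.422% and 0.329% after thinning to 1000 UMIs. Without barcodes with a UMI of CD79A, CD79B, CSF1R, LYZ or HBB it was 2.38%, 1.85% and 1.37% for no LPS, 2 h and 8 h, and with no upper limit on genes 2.86%, 2.65%, 2.998% and 1.996%, where the 4 h library is highest.

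Genes past 2-fold under LPS numbered 243, 289 and 458 at 2, 4 and 8 h, 34, 47 and 38 with at least 100 UMIs, 1281, 1284 and 2545 with no minimum, 53, 72 and 136 with a pseudocount of 10 CPM, and 380 at 2 h with cells weighted equally. Over all settings, with other scalings, gates and subsets of members included, the median of interferon-stimulated genes had wider ranges. It ranged from -0.11 to 0.47 for 2 h, from 1.24 to 2.03 for 4 h and from -0.27 to 0.68 for 8 h. The highest value at each time came with no upper limit on genes, where 6 of 22 were past 2-fold at 8 h. The lowest value at 8 h came without FCER1G-positive members.

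Few values changed direction, and the cause was not tested. With no upper limit on genes, the 2 h ratios of TOP2A, CCL2, DERL3 and TNFRSF9 were 0.32, 0.86, -0.13 and -1.51, the 4 h ratios of TOP2A and TNFRSF9 0.13 and -0.46, and the 8 h ratios of MKI67 and TOP2A 0.099 and 0.86. With the stricter gate TOP2A was 0.25 at 2 h and 1.196 at 4 h and ISG15 -0.18 at 8 h. ISG15 at 8 h was -0.80 without FCER1G-positive members and -0.22 without the highest members, CCL3 at 8 h was -0.37 without FCER1G-positive members, and JCHAIN at 2 h was -0.66 without UMIs of other classes. Against NCR1-positive CD3-zero cells FYN and NKG7 were 0.062 and 0.37 with thinned cells, and SRGN was -0.25 in CD8-positive members. Against granule-zero T cells ATF4 was -0.23 with thinned cells, JCHAIN -0.057 and MZB1 -0.60 without UMIs of other classes, and MZB1 -0.46 with under 10 JCHAIN UMIs. Without each library in turn MZB1 ranged from -0.89, without the 2 h LPS library, to 2.74. With CD8-positive CD4-zero cells of both groups, CST3 was -0.70, GATA3 0.48, ICOS 0.26, IL21R 0.35, IL2RA 0.84, MX1 0.38, NFKB2 0.16, NFKBIA 0.44, PHGDH 0.054, RELB 0.15, SRGN 0.71 and TNFRSF18 0.048.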

Other observations

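Of the interleukin receptors, 7 of 11 were higher and 3 lower than in granule-zero T cells (median 0.59). Over all tested genes 15.7% were higher and 11.5% lower in that comparison. Against NCR1-positive CD3-zero cells 1 of 9 was higher and 1 lower (median -0.08). This lay near the shares of all tested genes there, 10.5% higher and 12.6% lower. IL2RB, the chain shared by the receptors of interleukins 2 and 15, was -1.46 ± 0.14 (SE, adjusted p = 6.3e-07) against NCR1-positive CD3-zero cells and 2.69 ± 0.13 (SE, adjusted p = 1.4e-11) against granule-zero T cells. IL18RAP, a subunit of the interleukin 18 receptor, was 2.60 ± 0.16 (SE, adjusted p = 2.0e-10) against granule-zero T cells.

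Of 6 tested cycling genes 2, MKI67 and TOP2A, were higher than in granule-zero T cells (2.40 and 2.60), and MKI67 was lower than in NCR1-positive CD3-zero cells (-1.28). MKI67 UMIs were found in 12, 10, 12 and 1 cytotoxic T cells, and without LPS 1 cell held 34 of 69 MKI67 and 52 of 74 TOP2A UMIs. Without the no LPS library the differences from granule-zero T cells were 2.34 and 2.41. NF-kB response genes were lower than in NCR1-positive CD3-zero cells for 8 of 15 with none higher (median -0.68), and TNFAIP3, which limits NF-kB signalling, was -1.97 ± 0.14 (SE, adjusted p = 2.7e-08). Activation genes were lower for 6 of 12 and higher for 2 in that comparison (median -0.60). Against granule-zero T cells 3 of 19 were higher, near the 15.7% of all tested genes, and 6 lower (median -0.06). Plasma cell markers JCHAIN, MZB1 and DERL3 were higher than in granule-zero T cells, at 2.56, 2.00 and 1.302, with JCHAIN higher in 2 of 4 libraries and MZB1 in 1 of 4. Without cells with UMIs of other classes JCHAIN was -0.057 and MZB1 -0.60, and MZB1 was -0.89 without the 2 h LPS library.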
